A study of Mus musculus with 11 samples.

Results

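Pik3cg, Jak3, Cd163 and C1qc are 4 genes known from leukocytes and from Kupffer cells, the resident macrophages of the liver sinusoids. They were picked by symbol from the 13406 named genes of a mouse 2-colour array, and each is represented by 1 spot. The 4 were put forward with the group differences of these same arrays known, so their own values below are a description, with no test. The array compared the liver RNA of single C57/BL/6J mice, labelled with Cy5, with a universal mouse reference RNA, labelled with Cy3. All mice spent 10 weeks on their diet: rodent chow holding 6.5% fat in the control group, and a specialty diet holding 42.16% fat in the high-fat and fasted groups. The fasted group alone had its food withdrawn for the last 48 h. The labels give neither the age nor the sex of the mice. Of the 9 control, 5 high-fat and 4 fasted mice of the study, 4, 4 and 3 are represented by an array here. High-fat array 4 is left out of the comparisons unless named, which leaves 4 control, 3 high-fat and 3 fasted arrays.

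All 4 genes belong to immune cells, but to different parts of their machinery. Pik3cg encodes p110 gamma, the catalytic subunit of the phosphoinositide kinase that leukocytes switch on through G-protein-coupled receptors, among them chemokine receptors. Jak3 encodes a cytoplasmic tyrosine kinase bound to the common gamma chain of the interleukin receptors of lymphocytes, and it passes the signal on to STAT transcription factors. Cd163 encodes the macrophage receptor that takes up haemoglobin bound to haptoglobin. C1qc encodes 1 of the chains of C1q, the recognition molecule that starts the classical complement pathway, and macrophages are its main source. Liver tissue is mostly hepatocytes, so RNA of these cells is a small share of what was hybridised. In such whole-tissue RNA, fewer cells of a type and less RNA per cell cannot be told apart.

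Each value is a log ratio, liver to reference, read here as log2 and centred on the median of the filled spots of its array. A gene at 0 therefore lies at the median ratio of its array. The reference is the same on all arrays, so values of 1 gene can be compared between arrays, whereas levels of different genes cannot be ranked by them. Of the 17280 spots, 3864 to 5567 held a value on an array, and signal intensities were not used here. Over shared spots the 10 arrays correlated with Pearson r of 0.69 to 0.94, while high-fat array 4 reached between -0.03 and 0.01 with them, which puts the row order of its values in doubt. Of the 4 genes only Jak3 holds a value on that array. The high-fat arrays had the narrowest ratios, with a median absolute deviation of 0.26 to 0.39, against 0.43 to 0.52 on the control and 0.44 to 0.49 on the fasted arrays. The part of this narrower spread in the differences below was not tested, beyond the values given below for arrays scaled to equal spread.

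The 4 genes did not all follow 1 course over the 3 groups. Pik3cg and C1qc shared an order of group means, lowest in control and highest in high-fat livers. These 2 genes differed in the size of the change, and their values correlated with Pearson r of 0.74 over 9 arrays, a description with no test. Pik3cg was 3.59-fold higher in high-fat than in control livers and, after the fast, lay within 0.24 log2 units of control. Jak3 was 2.07-fold lower in high-fat and 2.26-fold lower in fasted livers than in control. Cd163 was 1.36-fold higher in high-fat and 1.58-fold higher in fasted livers than in control. C1qc was 1.42-fold higher in high-fat livers, with overlapping arrays, and 1.13-fold higher in fasted livers. In the linear model over all 3558 genes (limma, Benjamini-Hochberg adjusted p under 0.05), 2 of the 4 were called between high-fat and control, against 4.92% of all genes. They were 1 rise and 1 fall, against 2.95% and 1.97%. From high-fat to fasted, 0 rose and 1 fell, against 0.0843% and 0.281% (0.365% in both directions). From control to fasted, 1 rose and 1 fell, against 2.16% and 1.04% (3.20% in both directions). Arrays did not overlap for 2 genes that were higher and 1 that was lower in high-fat than in control livers, against 16.7% and 8.77% of all genes (25.4% together). For fasted against high-fat livers the counts were 1 and 1, against 11.1% and 17.8% (28.8% together), and for fasted against control 2 and 1, against 12.6% and 9.58% (22.2% together). As the genes were chosen on these contrasts, nothing is read from these counts.

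**Figure D1:**
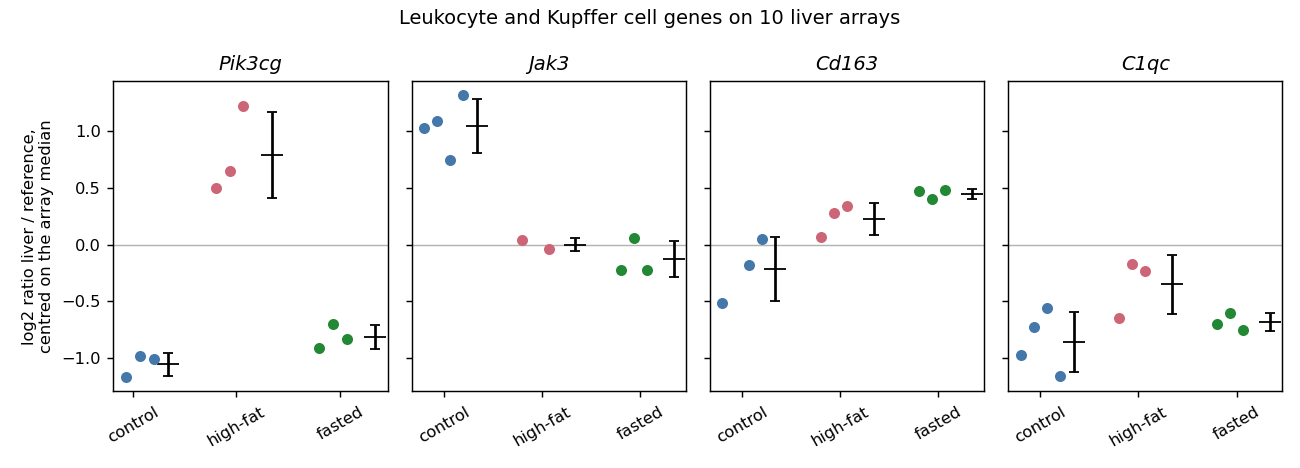
Each point is 1 array, the y axis gives the centred log2 ratio to the reference, and black bars give the mean and SD of a group. The Pik3cg values of the high-fat group (0.50 to 1.22) stand clear of both other groups, Jak3 is high only on the control arrays (0.75 to 1.32), Cd163 climbs from control to fasted, and the C1qc groups overlap.

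Pik3cg was filled on 9 of the 10 arrays, the empty one being control array 1. Its centred log2 ratio was -1.17, -0.98 and -1.01 on control arrays 2, 3 and 4, it was 0.50, 0.65 and 1.22 on high-fat arrays 1, 2 and 3, and it was -0.91, -0.70 and -0.83 on fasted arrays 1, 2 and 3. All 3 high-fat arrays lay above 0 and all others below it, with no overlap between high-fat and either other group. The group means were -1.05 ± 0.10 (SD, n = 3) in control, 0.79 ± 0.38 (n = 3) in high-fat and -0.81 ± 0.11 (n = 3) in fasted livers. The log2 difference was 1.84 ± 0.18 (SE) from control to high-fat, the rank 2 rise among the 3558 genes, and -1.60 ± 0.18 (SE) from high-fat to fasted, the rank 1 fall. Both differences rest on the same high-fat arrays. In order of level the groups ran control, fasted and high-fat, and the neighbours control and fasted differed by only 0.24 ± 0.18 (SE), although their arrays did not overlap. Leaving out any 1 array gave 1.63 to 1.99 for the first difference and -1.75 to -1.39 for the second. With arrays scaled to a common spread they were 1.92 and -1.72.

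The spots that touch Pik3cg on the array moved with it. The layout was inferred from the row numbers as lines of 20 spots. Among 100 distances in row number, deviations from a gene's mean were most alike at a distance of 20 rows (r of 0.19). Next came 1 row (r of 0.17), and the lowest r was 0.05, at 68 rows, so all distances showed some likeness. The lines were also grouped into blocks, and the size of these blocks was not tested. Of the 8 touching spots, 4 had values in both control and high-fat livers, and all 4 were higher in high-fat, by 0.25 to 1.46 with a mean of 0.76. Of these, 3 also had values in fasted livers and all were lower there than in high-fat livers, by a mean difference of -0.92. The remaining spot, with the difference of 0.25 and no gene symbol, rested on 1 control and 2 high-fat arrays. The touching spot with the widest swing belongs to Crabp1, a carrier of retinoic acid in the cytosol. Crabp1 read 0.18, 0.19 and 0.59 on control arrays 2, 3 and 4, then 1.95, 1.61 and 1.77 on the high-fat and 0.35, 0.35 and 0.31 on the fasted arrays. Like Pik3cg it was empty on control array 1. Another touching spot with no gene symbol was empty on the same array and read -0.15, -0.16 and -0.03 in control, 0.77, 0.43 and 0.98 in high-fat and -0.43, -0.32 and 0.03 in fasted livers. The touching spot of Fto, an RNA demethylase, was filled on all 10 arrays and lay between -0.65 and -0.14 in control, between -0.22 and 0.30 in high-fat and between -0.58 and 0.04 in fasted livers. The high-fat arrays were thus the high ones at these spots too, though for Fto they overlapped with control and fasted arrays.

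Farther out the pattern was weaker. Among the other 40 spots within 3 rows and columns, 18 had a difference between high-fat and control, 15 of them above 0, with a mean of 0.35. Of 17 with a difference between fasted and high-fat, 11 were below 0, with a mean of -0.18. Over all 3558 genes tested the median differences were 0.08 and -0.05. The median of neighbouring spots within a square of 5 by 5 spots was then subtracted on each array. Where fewer than 3 of these neighbours held a value on an array, nothing was subtracted there. Pik3cg had differences of 1.57 from control to high-fat and -1.29 from high-fat to fasted after this step. The touching spots still had mean differences of 0.33 and -0.685 after it, so the step did not level the nearest surroundings of Pik3cg. Whether position on the array has a part in the values of Pik3cg was not tested further.

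**Figure D2:**
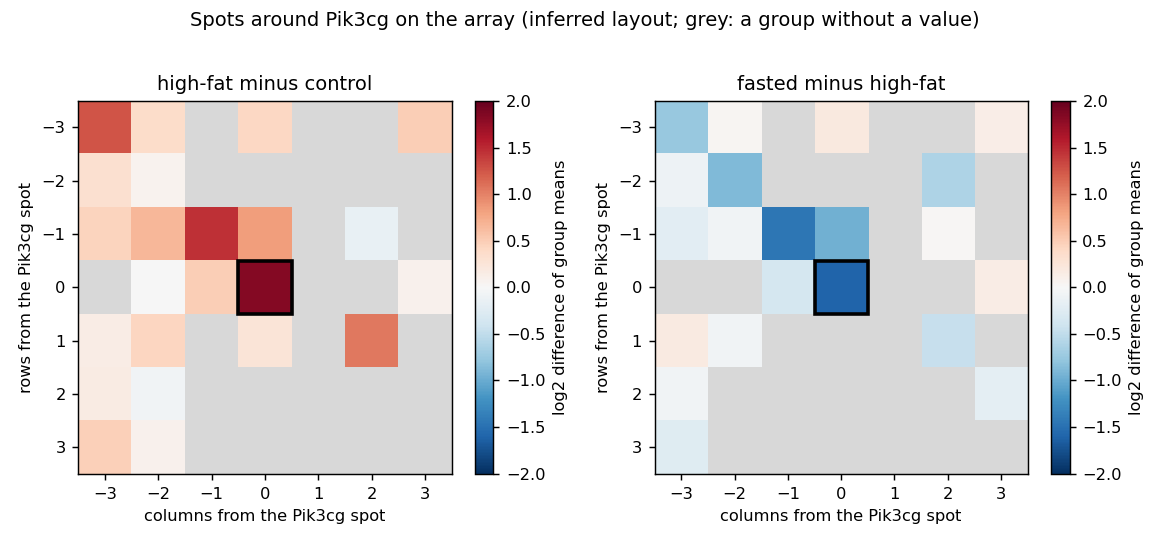
Each square is 1 spot at its distance in rows and columns from the Pik3cg spot (black frame), coloured by the log2 difference of group means, and grey squares lack a value in 1 of the 2 groups. The touching spots with a difference share the direction of Pik3cg in both panels, while spots farther out go both ways, with Crabp1 at 1.46 and -1.44 beside 1.84 and -1.60 for Pik3cg itself.

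Jak3 was filled on 9 of the 10 arrays, with high-fat array 2 empty. Its centred log2 ratio was 1.03, 1.09, 0.75 and 1.32 on control arrays 1 to 4, it was 0.04 and -0.04 on high-fat arrays 1 and 3, and it was -0.22, 0.06 and -0.22 on fasted arrays 1, 2 and 3. The control arrays were all high and did not overlap with either other group, while high-fat and fasted arrays overlapped. The means were 1.05 ± 0.23 (SD, n = 4), 0.00 ± 0.06 (n = 2) and -0.13 ± 0.16 (n = 3). Jak3 thus differed by -1.05 ± 0.17 (SE) between high-fat and control and by -1.17 ± 0.15 (SE) between fasted and control, ranks 46 and 17 among the falls. Both comparisons share the control arrays. High-fat and fasted livers, the neighbours in the order of levels, differed by -0.13 ± 0.18 (SE), less than the spread. That small difference turned to 0.10 with values as deposited, and was -0.08 without fasted array 1 or fasted array 3 and -0.22 without fasted array 2.

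High-fat array 4, which was left out, held 0.43 for Jak3, below all control arrays and above the other high-fat arrays. With it the difference between high-fat and control was -0.90. The row order of this array is in doubt, so the value it holds may not be that of Jak3. Of the 8 spots touching Jak3, 5 had values in both groups, with differences from -1.29 to 0.12 and a mean of -0.46. The 2 lowest of these were Smr2, with -1.29 from 1 array per group, and the matrix protein gene Ecm1, with -1.03 from 1 control and 2 high-fat arrays. The 2 touching spots filled on all 10 arrays, Rdh1 and Map3k5, differed by -0.10 and -0.01. Among the other 26 spots within 3 rows and columns, 4 had a difference, 3 of them below 0, with a mean of -0.98. The lowest, Cyp8b1 with -2.73, rested on 2 control arrays and 1 high-fat array. With the median of neighbouring spots subtracted, the Jak3 difference between high-fat and control was -0.85.

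Cd163 was filled on 9 of the 10 arrays, with control array 2 empty. Its centred log2 ratio was -0.51, -0.18 and 0.05 on control arrays 1, 3 and 4, it was 0.07, 0.28 and 0.34 on the high-fat arrays and it was 0.47, 0.40 and 0.48 on the fasted arrays. The 3 groups did not overlap, although the highest control and the lowest high-fat array lay only 0.02 apart. The means were -0.21 ± 0.28 (SD, n = 3), 0.23 ± 0.14 (n = 3) and 0.45 ± 0.04 (n = 3). The step from control to high-fat was 0.44 ± 0.16 (SE), the step from high-fat to fasted 0.22 ± 0.16 (SE) and the whole difference 0.66 ± 0.16 (SE). Without control array 1 the first step was 0.30, and without high-fat array 1 the second was 0.14. With values as deposited, on arrays that are not centred, the second step was 0.42. With the median of neighbouring spots subtracted, Cd163 differed by -0.25 between high-fat and control and by -0.04 between fasted and control, so its direction turned. A touching spot with no gene symbol had the same order of groups, with means of -0.61 in control, 0.34 in high-fat and 2.47 in fasted livers. Gfra4, a neurotrophic factor receptor and the other touching spot with values, had means of -0.23, 0.10 and -0.14. The part of these neighbours in the Cd163 values was not tested.

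C1qc was the only one of the 4 genes filled on all 10 arrays. Its centred log2 ratio was -0.97, -0.73, -0.56 and -1.16 on control arrays 1 to 4, it was -0.65, -0.17 and -0.23 on the high-fat arrays and it was -0.70, -0.60 and -0.75 on the fasted arrays. High-fat arrays 2 and 3 were the 2 highest, while high-fat array 1 lay among the control and fasted arrays, so all 3 groups overlapped. The means were -0.86 ± 0.26 (SD, n = 4), -0.35 ± 0.26 (n = 3) and -0.68 ± 0.08 (n = 3). C1qc differed by 0.51 ± 0.17 (SE) between high-fat and control, by -0.33 ± 0.18 (SE) between fasted and high-fat and by 0.17 ± 0.17 (SE) between fasted and control. Scaling the arrays to equal spread gave 0.30 and -0.12 for the first 2. The last was 0.27 without control array 3, 0.07 without control array 4 and -0.34 with the median of neighbouring spots subtracted, which turned its direction. Of the spots touching C1qc, only that of Fgf5 had values in all groups, with a difference of 0.53 between high-fat and control.

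**Figure D3:**
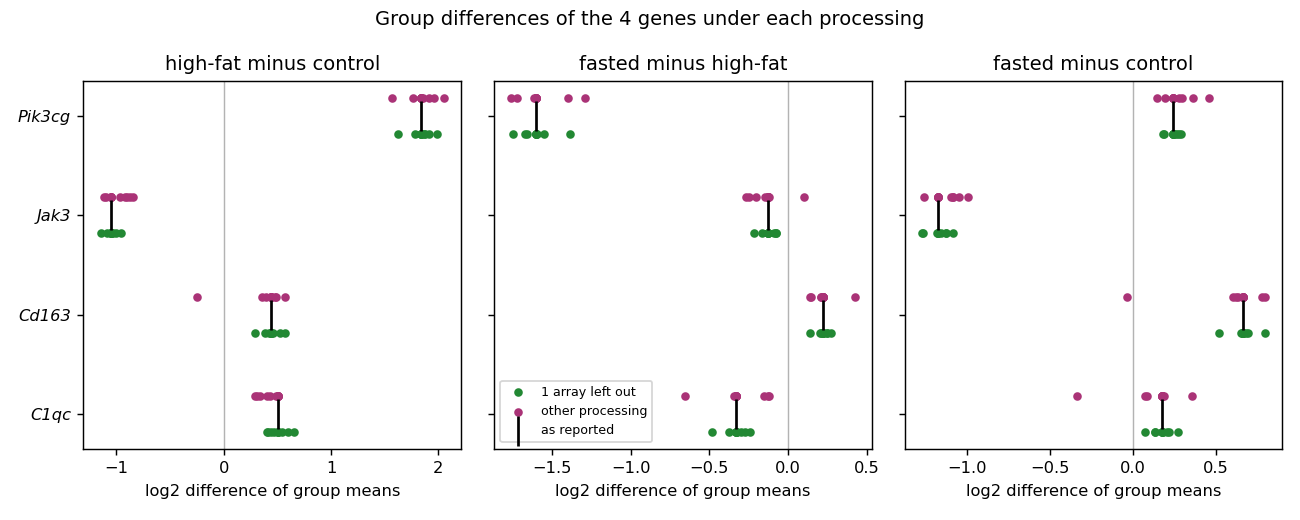
Each panel is 1 comparison and each point the log2 difference of group means of a gene under 1 alternative processing, with 1 array left out in green, other choices in purple and the reported value as a black bar. Pik3cg and Jak3 keep their direction against control under all of them, while Cd163 and C1qc each cross 0 against control under 1 choice, the subtraction of neighbouring spots.

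Other genes of the same cells and pathways were drawn from 16 lists of 356 genes besides the 4, of which 303 have a spot. No value on any of the 10 arrays was held by 168 of the 303, or 55.5%, against 52.3% of all named genes, and 65 could be tested, or 21.5%, against 23.6%. Among these 65 genes, 1 rose and 2 fell between high-fat and control, 4.62% against 4.92% of all genes tested. Between fasted and high-fat 0 were called (limma), with 7 genes higher and 10 lower without overlap between the arrays, or 10.8% and 15.4%, against 11.1% and 17.8% of all genes. Between fasted and control 2 rose and 2 fell, 6.15% against 3.20%.

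The leukocyte lists were thinly covered. Across the Kupffer cell, pan-leukocyte, T and NK cell, B cell, neutrophil, and MHC class II lists, 119 other genes have a spot, 77 held no value on any array and 19 were tested. Of these 19, 1 rose and 0 fell between high-fat and control, and 0 were called in the other 2 comparisons. The 1 of 19 is 5.26%, near the 4.92% of all genes. The median difference with the diet was 0.07, with the fast -0.02, and 0.01 for the fasted livers against control, beside 0.08, -0.05 and 0.02 over all genes tested.

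Most Kupffer cell and macrophage markers could not be read beside Cd163 and C1qc. Of the 28 other markers with a spot, 20 held no value on any array, among them the defining genes Clec4f, Marco, Adgre1 and Cd68. The other C1q chains shared this: C1qb was empty on all 10 arrays and C1qa was filled on 1 control array. The 3 macrophage markers that could be tested were filled on all 10 arrays, and 0 of them passed in any comparison. They are named here after their values were seen. Aif1, an actin-bundling protein of macrophages, had 0.28 ± 0.14 (SE, adjusted p of 0.25) between high-fat and control, the Fc receptor Fcgr3 had 0.05 ± 0.15 (SE, adjusted p = 0.864) and the membrane protein Ms4a7 had -0.17 ± 0.16 (SE, adjusted p = 0.531), all by limma. Their mean centred ratio ran from -0.23 to 0.01 on control, from -0.08 to -0.03 on high-fat and from -0.20 to 0.03 on fasted arrays, so the groups overlapped.

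Among pan-leukocyte genes, Cd52, a small glycoprotein on the surface of lymphocytes and monocytes, was the 1 of 5 that rose with the diet, beside 2.95% of all genes. It read -0.82, -1.01, -0.96 and -1.11 on the control, -0.48, -0.65 and -0.40 on the high-fat and -0.73, -0.76 and -0.84 on the fasted arrays. High-fat arrays were above all others. The difference was 0.47 ± 0.12 (SE, limma adjusted p = 0.0480) between high-fat and control and -0.27 ± 0.13 (SE, adjusted p = 0.358) between fasted and high-fat. The call was lost without any 1 of the 10 arrays, and over all settings the adjusted p ran from 0.0361 to 0.785. The difference itself was 0.09 with neighbouring spots subtracted, 0.23 with arrays scaled, 0.31 with quantile normalisation and 0.68 with all 11 arrays. Ptprc, which encodes the common leukocyte antigen CD45, had -0.06 ± 0.30 (SE, adjusted p = 0.919) between high-fat and control and -0.66 ± 0.30 (SE, adjusted p = 0.338) between fasted and high-fat. Spi1, the transcription factor PU.1 of myeloid cells, had -0.02 and -0.01 (adjusted p of 0.960 and 0.991). Ptprc and Spi1 were named after their values were seen.

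T cell genes are the natural neighbours of Jak3 in function. Of 5 tested, 0 passed in any comparison and 4 were above 0 between high-fat and control, with a median of 0.16. Over all 3558 genes, 2150 were above 0 between high-fat and control, with a median of 0.08. The calls over all genes were 4.92% for high-fat against control, 0.365% for fasted against high-fat and 3.20% for fasted against control. Cd3d and Cd3e, subunits of the T cell receptor complex, had 0.07 and -0.17 between high-fat and control (adjusted p of 0.779 and 0.609), and Lat, an adaptor of that receptor, had 0.51 (adjusted p = 0.0675), all 3 named after their values were seen. The lymphocyte genes Il2rb, Il7r, Cd4 and Cd8a held no value on any array. The B cell list had 1 tested gene, Ighm, the heavy chain of immunoglobulin M, with 0.61 ± 0.16 (SE, adjusted p = 0.0540) between high-fat and control, also named after its values were seen.

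Of the kinase pathway around Pik3cg, 8 other genes could be tested. Of these 8 genes, 1 rose between fasted and control (12.5%, beside 2.16% of all genes) and 0 were called in the other 2 comparisons. Their median difference with the diet was 0.29, with the fast 0.05, and 0.09 for the fasted livers against control, beside 0.08, -0.05 and 0.02 over all genes. The gene that rose was Pik3ip1, which encodes a membrane inhibitor of the p110 subunits. It read -1.40, -0.69, -1.13 and -0.78 on control arrays, -0.65, -0.05 and -0.59 on high-fat arrays and -0.26, 0.15 and 0.34 on fasted arrays. Every fasted array was above every control array. The difference between fasted and control was 1.08 ± 0.21 (SE, limma adjusted p = 0.0274), a 2.11-fold change, and between high-fat and control it was 0.57 ± 0.21 (SE, adjusted p = 0.127). The adjusted p of the first ran from 0.00543 to 0.0959 over all settings, and it was over 0.05 without control array 1 or 3 or any 1 fasted array. Pik3cb, the p110 beta subunit found in most tissues, had 0.39 ± 0.15 (SE, adjusted p = 0.143) between high-fat and control, without overlap, and -0.08 between fasted and high-fat (adjusted p = 0.859). Pik3c2g, a class II enzyme of the liver, had 0.10 and 0.06 (adjusted p of 0.696 and 0.875). Pik3cd, the other leukocyte subunit, and the regulatory genes Pik3r1 and Pik3r2 held no value on any array.

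Of the cytokine receptor, JAK and STAT list, 3 other genes could be tested and 0 passed in any comparison. Stat3, which acts downstream of interleukin-6 in hepatocytes, had -0.03 ± 0.19 (SE, adjusted p = 0.938) between high-fat and control and -0.27 ± 0.19 (SE, adjusted p = 0.464) between fasted and control, with values on 4 control, 2 high-fat and 2 fasted arrays. Of the other kinases of the family, Tyk2 held no value on any array, Jak2 was filled on 3 control, 1 high-fat and 2 fasted arrays, and Jak1 has no spot matched here.

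Of the complement genes around C1qc, 0 of 7 tested were called in any comparison. Between high-fat and control 1 of 7 was above 0, with a median of -0.29 against 0.08 over all genes, while C1qc itself had 0.51. The proteases of the C1 complex, C1ra and C1s1, held values on 5 arrays each and could not be tested. Of the genes that handle haemoglobin, haem and iron around Cd163, 0 of 8 tested were called in any comparison. Hp, which encodes the haptoglobin that brings haemoglobin to the Cd163 receptor, had -0.08 ± 0.37 (SE, adjusted p = 0.913) between high-fat and control and -0.67 ± 0.37 (SE, adjusted p = 0.323) between fasted and control. Hpx, the haem carrier haemopexin, had -0.60 ± 0.48 (SE, adjusted p = 0.474) and -0.61 ± 0.48 (SE, adjusted p = 0.519). Hmox1, the haem oxygenase of macrophages, was filled on 1 array of each group. Inflammatory cytokine genes gave 2 tested of 30 with a spot, of which 0 passed, and Tnf and Il6 held no value on any array.

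**Figure D4:**
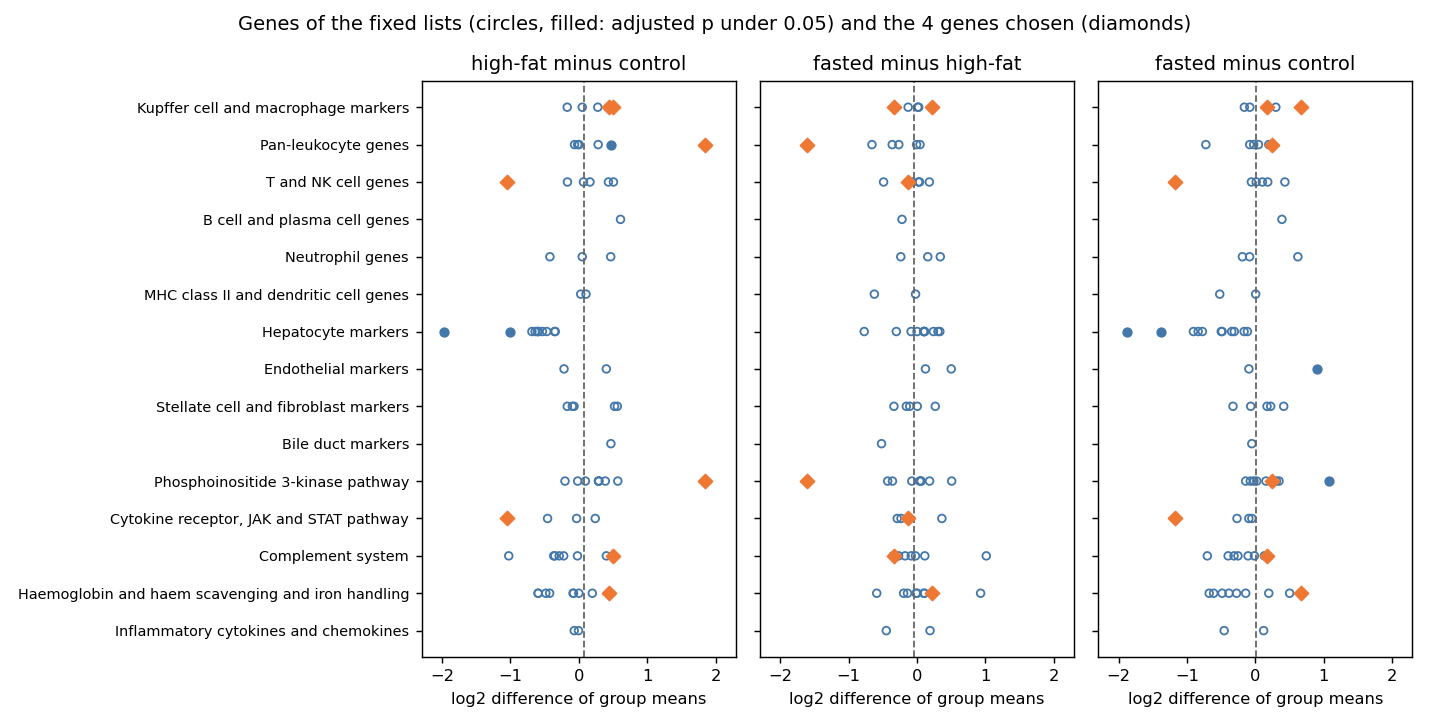
Each circle is 1 tested gene of a list, filled where its adjusted p was under 0.05, diamonds are the 4 genes, the x axis is the log2 difference of group means, and dashed lines mark the median of all genes tested. Pik3cg (1.84), Jak3 (-1.05), Cd163 (0.44) and C1qc (0.51) all lie outside the range of the circles of their lists between high-fat and control. Few circles are filled. The diamonds were chosen with these differences known, so nothing is read from their place.

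Among markers of other cell types, calls were made in the hepatocyte and endothelial lists. Hepatocyte markers had lower means in high-fat than in control livers for 11 of 11 tested genes, with a median of -0.60, while over all 3558 genes 1408 were not above 0 and the median was 0.08. Of the 11, 3 were lower without overlap, beside 8.77% of all genes, and 2 fell by limma, beside 1.97%: Cyp3a11, a drug-metabolising cytochrome, with -1.98 (adjusted p = 0.0253, and 0.0113 to 0.0891 over all settings), and Apoa1, the main protein of high-density lipoprotein, with -1.01 (adjusted p = 0.0480, and 0.0330 to 0.246 over all settings). The Apoa1 call was lost without any 1 array other than control array 4, and its difference was -0.44 with arrays scaled, -0.38 with quantile normalisation and -0.56 with neighbouring spots subtracted. The high-fat difference of Cyp3a11 was -1.35 with arrays scaled. In control livers the 11 markers had means from 0.725 (Ahsg) to 3.25 (Cyp3a11), all above the array median. The part of the narrower ratios of the high-fat arrays in the 11 of 11 was not tested. Between fasted and control 11 of 11 hepatocyte markers were also lower, while over all 3558 genes 1705 were not above 0. Of the 11, 5 were lower without overlap, beside 9.58% of all genes, and 2 fell by limma, beside 1.04%. These 2 were Cyp3a11 with -1.87 (adjusted p = 0.0336, and 0.0176 to 0.130 over all settings) and Ttr, the carrier of thyroid hormone and retinol, with -1.38 (adjusted p = 0.0216, and 0.00665 to 0.239). Cyp3a11 was called in 14 and Ttr in 16 of 22 settings, and Ttr had -0.84 with neighbouring spots subtracted. The fasted call of Cyp3a11 was lost without control array 1 or 3 or any 1 fasted array and that of Ttr without fasted array 1 or 2, while leaving out a high-fat array, or control array 3, ended the high-fat call of Cyp3a11. The mean ratio of the 10 hepatocyte markers filled on all arrays ran from 1.79 to 2.88 on control, from 1.31 to 1.54 on high-fat and from 1.35 to 1.53 on fasted arrays, and Pck1 and Fgg held no value. Among endothelial markers 1 of 2 tested rose between fasted and control, beside 2.16% of all genes, and 2 genes are too few to stand for a cell type. The gene that rose was Kdr, the main receptor of vascular endothelial growth factor, with 0.90 ± 0.15 (SE, limma adjusted p = 0.0181, and 0.00187 to 0.219 over all settings). Kdr read 0.11, 0.42, -0.08 and 0.38 on control, 0.60, 0.75 and 0.48 on high-fat and 1.22, 0.97 and 1.14 on fasted arrays, with no overlap between any 2 groups. Its call was lost without fasted array 1 or 2. Tie1, the other endothelial gene tested and also a receptor kinase, had -0.09 between fasted and control (adjusted p = 0.892) and -0.22 between high-fat and control (adjusted p = 0.733). Pecam1 and Lyve1, markers of endothelium, held no value on any array. Stellate cell and bile duct lists had 0 of 5 and 0 of 1 genes called in any comparison, and the 5 red cell genes with a spot held no value. The part of these markers in the values of the 4 genes was not tested.

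The genes whose values over the arrays were most like those of each of the 4 were looked for among named genes filled on the same arrays. These correlations describe 9 or 10 arrays in 3 groups, so they follow the group means and carry no test. For Pik3cg, among 2145 genes, they were Mtmr3 (Pearson r of 0.95), a phosphoinositide phosphatase, Crabp1 (0.95), 2310047L11Rik (0.94), Tac1 (0.94), the precursor of substance P, and Tm2d1 (0.93). All 5 were higher in high-fat than in control livers without overlap, but only Crabp1, the touching spot, came near in size: the others differed by 0.37 to 0.51. For Jak3, among 2121 genes, they were Mff (0.94), a factor of mitochondrial fission, 5330439K02Rik (0.94), Ptp4a2 (0.92), Hmgxb4 (0.92) and Ccr1l1 (0.90), which differed by -0.51 to -0.22 between high-fat and control. For Cd163, among 2038 genes, they were Col25a1 (0.94), a transmembrane collagen, Rnf5 (0.94), Itgb1 (0.93), the integrin beta 1 subunit, Arpp19 (0.93) and Atxn10 (0.93), which were higher by 0.51 to 1.83 in fasted than in control livers. For C1qc, among 2016 genes on all 10 arrays, they were Exoc3l2 (0.96), Phactr3 (0.96), Apobec1 (0.95), the enzyme that edits apolipoprotein B messenger RNA, Galnt11 (0.93) and 4930540E01Rik (0.93). On the array Crabp1 touches Pik3cg and Arpp19 lies 2 rows from Cd163, while none of the others is among the spots within 3 rows and columns, in the same block, of the gene it resembles.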

How the data were processed

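The authors deposited 1 table of log ratios, taken here as log2 ratios of liver (Cy5) over reference (Cy3), per spot and array, per the labels. What the sources used here do not give is the log base, scanner, background correction, normalisation and the rule behind empty cells. Another base would scale all differences by 1 factor.

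Each array was centred on its median, and spots of 1 symbol were averaged. Symbols came from the platform table, and 14445 of 14718 single-symbol spots matched the current gene table. Genes with values on at least 2 arrays of each group were tested, 3558 in all, with limma 3.58.1 in R 4.3.3 (3 group means, common spread, two-sided, adjusted p under 0.05). The pipeline was tested on simulated data. Leaving out high-fat array 4 was part of the rule that chose the genes, and members and lists were chosen with earlier results of these data known. Named genes are the 4, list genes called in a comparison, tested PI3K subunit, JAK, STAT, C1, haptoglobin and haemopexin genes, and the 5 genes most like each of the 4. Touching spots, genes without a value and the other uncalled list genes were named outside this rule, after their values were seen. Each array is 1 mouse per the labels, so the spread includes that between mice, and precision is limited by how many arrays there are. Alternatives were all 11 arrays, scaling, quantile normalisation, no centring, other centring, filters, spots kept apart, the 2 groups of a contrast alone, a block by mouse number, neighbour subtraction and leaving out each array. A touching spot lies within 1 row and column. Probe and protein sequences were not used here.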

Additional observations from a re-analysis of the deposited data

How the results depend on the processing

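All differences of the 4 genes kept their direction without any 1 array: Pik3cg ran from 1.63 to 1.99, Jak3 from -1.15 to -0.96, Cd163 from 0.30 to 0.58 and C1qc from 0.40 to 0.66 between high-fat and control. With neighbouring spots subtracted, Cd163 turned to -0.25 (high-fat minus control) and -0.04 (fasted minus control) and C1qc to -0.34 (fasted minus control), Pik3cg had 1.57 and -1.29, Jak3 -0.85, C1qc -0.65 between fasted and high-fat, and the spots next to Pik3cg 0.33. With values as deposited, Jak3 between fasted and high-fat turned to 0.10 and Cd163 was 0.42. With arrays scaled, the spots next to Pik3cg had -1.19 between fasted and high-fat. The causes were not tested.

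Of all genes, 175 (105 rose, 70 fell) were called between high-fat and control, 13 (3 rose, 10 fell) between fasted and high-fat and 114 (77 rose, 37 fell) between fasted and control. The first count was 86 as deposited (35 rose, 51 fell), 70 with neighbours subtracted (37, 33), 115 without the genes of lowest mean ratio (54, 61), 23 with only the 2 groups (8, 15) and 22 to 190 without 1 array. The split was 101 and 24 with arrays scaled, 137 and 22 with quantile normalisation and 55 and 82 with centring on spots filled on all 10 arrays. The second count was 3 with all 11 arrays, 24 with quantile normalisation (3, 21), 16 as deposited (11, 5), 15 with arrays scaled (0, 15), 7 for genes filled on all 10 arrays, 53 with only the 2 groups (16, 37) and 3 to 23 without 1 array. The third was 25 with all 11 arrays, 10 with arrays scaled, 198 as deposited (180, 18), 45 with neighbours subtracted, 57 with only the 2 groups and 5 to 157 without 1 array. It split into 39 rises and 52 falls with centring on fully filled spots and into 69 and 11 with quantile normalisation.

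Of list genes, 3, 0 and 4 were called in the 3 comparisons (520 genes had an unadjusted p under 0.05 in the second). The first was 1 with arrays scaled, with centring on fully filled spots and without the genes of lowest mean ratio, 0 with only the 2 groups and 0 to 4 without 1 array. The second was 1 with only the 2 groups and 0 to 1 without 1 array. The third was 0 with all 11 arrays or neighbours subtracted, 1 with arrays scaled and 0 to 6 without 1 array.

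Mouse numbers are shared between groups and were not taken as pairs in the main fit. Deviations of same-numbered arrays correlated with r of -0.18 to 0.18, beside -0.23 to 0.25 for arrays of different numbers. Of the 9 same-numbered pairs, 3 had r over 0.1, and these were the pairs among the arrays numbered 1. With the number as a replicate block, 118, 4 and 112 genes and 1, 0 and 5 list genes were called, and Pik3cg had 1.96 between high-fat and control. As intensities were not used here, signal over background limits these values to an unknown degree.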
